A study of Mus musculus with 21 samples.

Results

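The genes described here are 34 listed genes of endoplasmic reticulum (ER) protein folding and of the unfolded protein response, chosen by gene symbol in 2 sets of mouse arrays. Each gene was read from its brightest probe set, judged by the mean over a set's arrays. In each set 33 of the 34 genes were measured, among 18193 genes in the NMuMG set and 12393 in the NM18 set. Sec61g was not measured on its own, because its only probe set carries several gene symbols. Ero1l is written Ero1a on the arrays.

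Proteins that enter the secretory pathway pass through the Sec61 channel into the ER, where the chaperone BiP (Hspa5), the lectins calreticulin and calnexin and the protein disulfide isomerases fold them. When unfolded proteins build up, the sensors IRE1, PERK and ATF6 raise the transcription factors XBP1, ATF4 and CHOP (Ddit3) and the processed form of ATF6, which act on genes for chaperones, for ER-associated degradation and for amino acid supply. ATF4 is also reached through other kinases that phosphorylate the translation initiation factor eIF2, so its targets move in amino acid shortage too.

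The study measured RNA in mouse mammary epithelial cells treated with the cytokine TGF-b1, and after knockdown of the forkhead transcription factor FoxQ1. NMuMG cells, a line from normal mouse mammary gland, all received 200 µM of the labelled nucleoside 4sU for 2 h. They form 4 groups of 3 arrays: 5 ng/ml TGF-b1 for 2 h or no TGF-b1 (control), each as newly made RNA, enriched for 4sU by mercury-based chromatography, and as total RNA. NM18 cells all received 25 nM siRNA for 48 h. They form 3 groups of 3 arrays: FoxQ1 siRNA with 5 ng/ml TGF-b1 added after 8 h for 40 h, control (scrambled) siRNA with the same TGF-b1, and control siRNA without TGF-b1. No FoxQ1 siRNA group without TGF-b1 exists. The labels call the 3 arrays of a group biological replicates, and they do not say whether total and newly made RNA came from the same cultures.

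Motifs of these transcription factors were searched for in the promoters. Windows of 300 bases, from 250 before to 50 after the RefSeq start (build GRCm38.p6), were found for 29 of the 34 genes and searched on both strands. The ER stress response element (ERSE, CCAAT and CCACG with 9 free bases between them), the element for ATF6 and XBP1, stood in 7 of the 29 windows (24.1%), against 0.119% of all 32851 windows. ERSE-II, ATTGG and CCACG with 1 free base between them, stood in 2 of the 29 (6.9%), against 0.0365% of all. The ATF4 and CHOP element (CARE, spelled TGATGNAA) stood in 4 of the 29 (13.8%), against 3.97% of all, and no matches overlapped within a window. A match describes the letters of the window and not a bound site.

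Of the 12 genes with a match, 6 are shown from 150 bases before to 30 after the start. The stretches run 5′ to 3′ on the gene's strand, with the fixed letters of each motif in capitals. The windows of Xbp1, Pdia3, Dnajb9, Ppp1r15a, Ero1l and Edem1, also called below, held none of these motifs. Hspa5 (chr2:34771940-34772119, plus strand) holds an ERSE at bases -65 to -47 from the start, and Creld2 (chr15:88819496-88819675, plus strand) one on the opposite strand at -126 to -108. Dnajb11 (chr16:22857695-22857874, plus strand) holds an ERSE-II at 8 to 18. Herpud1 (chr8:94386279-94386458, plus strand) holds an ERSE-II at -52 to -42 and a CARE on the opposite strand at -112 to -105. A CARE lies at -23 to -16 in Asns (chr6:7693180-7693359, minus strand) and, on the opposite strand, at 15 to 22 in Trib3 (chr2:152344031-152344210, minus strand).
Hspa5: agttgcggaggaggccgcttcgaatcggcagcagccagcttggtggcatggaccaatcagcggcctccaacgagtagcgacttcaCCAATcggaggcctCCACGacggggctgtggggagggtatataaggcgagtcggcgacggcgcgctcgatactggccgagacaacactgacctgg
Creld2: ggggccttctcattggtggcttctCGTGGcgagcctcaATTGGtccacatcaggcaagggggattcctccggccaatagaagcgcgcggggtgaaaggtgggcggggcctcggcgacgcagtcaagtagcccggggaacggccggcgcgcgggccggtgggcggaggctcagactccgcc
Dnajb11: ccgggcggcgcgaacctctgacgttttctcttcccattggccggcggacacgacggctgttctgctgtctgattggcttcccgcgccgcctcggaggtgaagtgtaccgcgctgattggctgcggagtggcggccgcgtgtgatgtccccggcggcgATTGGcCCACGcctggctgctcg
Herpud1: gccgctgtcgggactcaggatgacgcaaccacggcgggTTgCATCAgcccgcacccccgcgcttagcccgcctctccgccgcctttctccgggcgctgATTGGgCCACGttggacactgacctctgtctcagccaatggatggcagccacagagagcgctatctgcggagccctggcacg
Asns: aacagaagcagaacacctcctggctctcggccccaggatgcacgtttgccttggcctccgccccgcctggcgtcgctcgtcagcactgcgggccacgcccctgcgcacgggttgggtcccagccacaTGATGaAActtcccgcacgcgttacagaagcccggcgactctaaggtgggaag
Trib3: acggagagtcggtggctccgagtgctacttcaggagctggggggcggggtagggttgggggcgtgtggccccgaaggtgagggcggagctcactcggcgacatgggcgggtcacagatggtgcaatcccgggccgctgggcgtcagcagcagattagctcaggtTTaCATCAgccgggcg

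The other ERSE matches, shown as spelled from the CCAAT end, were in the windows of Canx, Dnajc3, Pdia6, Calr and Hsp90b1, the last with a pair of matches. Chac1 held the remaining CARE, on the opposite strand at -193 to -186.
Canx: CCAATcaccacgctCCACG
Dnajc3: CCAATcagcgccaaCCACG
Pdia6: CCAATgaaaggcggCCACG
Calr: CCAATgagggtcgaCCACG
Hsp90b1, at -212 to -194: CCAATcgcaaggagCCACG
Hsp90b1, at -107 to -89: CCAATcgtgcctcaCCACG

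All values are the authors' processed array values on a log2 scale, and every difference below is on that scale, with the SE of the fit. A gene was called changed at an adjusted p under 0.05 in limma over all genes of its set. All 33 measured genes lay above the median gene level of their set, so shares of called genes are given over all genes and over genes above the median level. Foxq1 was higher with TGF-b1 at 2 h (0.95 in newly made and 1.10 in total RNA, adjusted p 0.0292 and 0.0211) and at 40 h (0.89, adjusted p 0.00164). It was lower with FoxQ1 siRNA than with control siRNA under TGF-b1 (-1.27, adjusted p 0.000291). Epithelial markers averaged 8.68 to 9.83 per NMuMG array and 9.67 to 10.1 per NM18 array. Endothelial markers averaged 4.79 to 5.13 and 5.79 to 5.98, against medians of all genes of 6.61 and 7.76. Of the 8 epithelial markers 5 to 7 lay above the median gene in each NMuMG group and 4 or 5 in each NM18 group. None of the 4 endothelial markers did. A free-text note on array 1 of the untreated control siRNA group mentions TGF-b1, although the title of that array does not. The title was followed, and call counts of the comparisons with that group are given with and without the array. Without it, the Foxq1 difference at 40 h was 0.71 (adjusted p 0.00515).

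The first comparison asks what 2 h of TGF-b1 did in NMuMG cells. Trib3 and Xbp1 rose in newly made and in total RNA, Ddit3 fell in total RNA, Atf6 fell in newly made RNA, and none of the folding enzymes was called. Of the 33 genes, 3 were called in newly made RNA (9.09%), 2 higher and 1 lower. Over all genes 6.13% were called there (3.35% higher, 2.79% lower), and among genes above the median level 9.85% (5.44% higher, 4.41% lower). In total RNA 3 of the 33 were called (9.09%), again 2 higher and 1 lower. Over all genes 2.48% were called in total RNA (1.46% higher, 1.02% lower), and among those above the median level 4.09% (2.46% higher, 1.63% lower). The members' share in newly made RNA was thus near that of other well expressed genes. The median difference of the 33 genes was -0.03 in newly made and -0.05 in total RNA, against -0.01 and -0.03 for all genes. In bulk RNA, a change in the number of cells of a type and a change in RNA per cell cannot be told apart.

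Trib3, a pseudokinase gene that ATF4 and CHOP switch on, had 8.65, 8.71 and 8.38 in TGF-b1 arrays and 7.63, 7.76 and 7.35 in control arrays of newly made RNA. In total RNA the TGF-b1 arrays had 9.15, 9.04 and 8.91 and the control arrays 7.93, 7.69 and 7.78. Every TGF-b1 array lay above every control array of the same RNA. The difference was 1.00 ± 0.13 (SE) in newly made RNA, a fold of 2.00, and 1.23 ± 0.13 in total RNA, a fold of 2.35 (limma adjusted p 0.000154 and 3.7e-05). Its other probe set gave 0.83 and 1.03.

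Xbp1, the gene of the transcription factor made active by IRE1, had 11.59, 11.67 and 11.62 in TGF-b1 arrays and 10.95, 10.99 and 10.94 in control arrays of newly made RNA. Total RNA had 11.37, 11.12 and 11.22 with TGF-b1 and 10.60, 10.27 and 10.56 in controls. Again no TGF-b1 array overlapped the controls. The rise was 0.67 ± 0.12 in newly made RNA, 1.59-fold, and 0.76 ± 0.12 in total RNA, 1.69-fold (adjusted p 0.00158 and 0.00102). The other 3 Xbp1 probe sets differed by 0.39 to 0.71 and by 0.41 to 0.81, with the lowest of them not called.

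Ddit3, which encodes the stress factor CHOP, moved the other way. Total RNA had 7.81, 7.74 and 7.90 in TGF-b1 arrays and 8.34, 8.32 and 8.63 in controls, with no overlap, a fall of -0.61 ± 0.12 (adjusted p 0.00739). Newly made RNA had 7.52, 7.64 and 7.55 with TGF-b1 and 7.99, 7.72 and 7.90 in controls, and the difference of -0.30 ± 0.12 was not called (adjusted p 0.201). With the mean of its probe sets Ddit3 was called lower in newly made RNA too (-0.34, adjusted p 0.0335). Without array 2 of TGF-b1 total RNA the call for Ddit3 in total RNA was lost (adjusted p 0.0527).

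Atf6, the gene of the membrane-bound sensor, had 7.93, 8.15 and 8.12 in TGF-b1 arrays and 8.46, 8.41 and 8.70 in control arrays of newly made RNA. The groups did not overlap, and the difference was -0.46 ± 0.12 (adjusted p 0.0366). That call was lost in 8 of 12 alternative fits, with adjusted p up to 0.148. In total RNA the difference was -0.30 ± 0.12 (adjusted p 0.398). Atf4 itself differed by -0.06 in newly made and 0.08 in total RNA. Epithelial markers averaged 9.71 to 9.83 per array with TGF-b1 and 9.54 to 9.63 in controls of total RNA, with 1 of 8 called higher, and their part in these results was not tested.

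**Figure D1:**
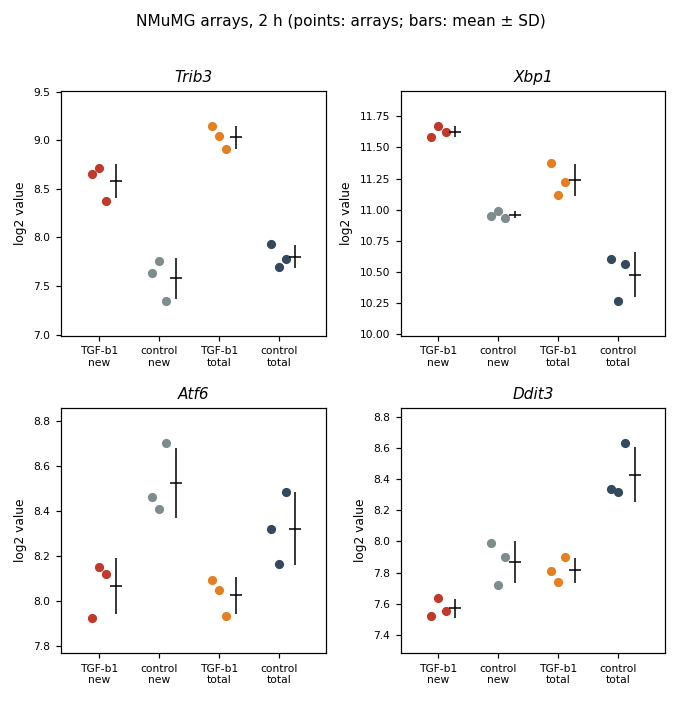
Log2 values of Trib3, Xbp1, Atf6 and Ddit3 on the 12 NMuMG arrays, 3 per group, as points, with the group mean and SD as bars beside them. For Trib3 and Xbp1 each TGF-b1 group lies wholly above the control group of the same RNA, with means of 8.58 and 7.58 for Trib3 in newly made RNA and of 9.03 and 7.80 in total RNA.

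Apart from Trib3, the ATF4 and CHOP targets were not called at 2 h. Chac1, a glutathione-degrading enzyme gene, differed by 0.15 in newly made and -0.02 in total RNA. Ppp1r15a, whose product brings a phosphatase to eIF2, differed by -0.18 and -0.26, and asparagine synthetase (Asns) by -0.16 and -0.08. The 9 lumen chaperones and co-chaperones ranged from -0.23 to 0.33 in newly made RNA and from -0.31 to 0.04 in total RNA, and 0 of them were called in limma, with 1 in each RNA at an unadjusted p under 0.05. The highest was Hspa5 in newly made RNA, at 12.22, 12.57 and 12.47 with TGF-b1 and 11.92, 11.98 and 12.37 in controls. These groups overlapped (0.33 ± 0.15, adjusted p 0.282). Lectin chaperones and disulfide enzymes ranged from -0.32 to 0.05 and from -0.12 to 0.02, ER-associated degradation genes from -0.16 to 0.22 and from -0.14 to 0.21, and translocon genes from -0.24 to 0.17 and from -0.12 to -0.03.

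The TGF-b1 difference in newly made RNA was also set against that in total RNA in the same fit. Over all genes 12 were called (0.066%, with 0.011% higher and 0.055% lower) and 0 of the 33 ER genes, with 0 also at an unadjusted p under 0.05. Differences of this kind ran from -0.23 for Trib3 and Ero1l to 0.31 for Ddit3, and the SE for Ddit3 was 0.17.

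Other genes of the pathway came from lists of sensors and degradation, of other folding enzymes, of translocation and glycosylation, and of ATF4 targets. Of 30 sensor and degradation genes, 3 rose in newly made RNA. They were Eif2ak3, the gene of the sensor PERK (0.89), Ern1, the gene of IRE1 (0.55), and Ube2j1, a ubiquitin-conjugating enzyme of the ER (0.68). Eif2ak3 was also higher in total RNA (0.87, adjusted p 0.00202), the only called gene of that list there. Of 31 other folding enzymes and 27 translocation genes none was called in limma in either RNA, with 4 and 3 at an unadjusted p under 0.05 in newly made RNA and 0 and 1 in total RNA. Of 38 ATF4 targets and related genes 4 fell in newly made RNA, among them Cth (-1.23), Psat1 (-0.70) and Gpt2 (-0.76), all enzymes of amino acid metabolism, and 1 fell in total RNA, Sesn2 (-0.63). Beside the counts of these lists, 6.13% of all genes were called in newly made and 2.48% in total RNA. Among genes above the median level 9.85% and 4.09% were, all without a block. With the replicate number as a block, 1 folding enzyme was higher in newly made RNA. The ATF4 list then had 1 higher and 5 lower in newly made RNA, and 2 higher and 1 lower in total RNA.

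The comparison at 40 h asks what TGF-b1 did in NM18 cells that carried control siRNA. Of the 33 ER genes 11 were called (33.3%), 8 higher (24.2%) and 3 lower (9.09%) with TGF-b1. Over all genes 30.7% were called (13.2% higher, 17.5% lower), and among genes above the median level 47.8% (21.4% higher, 26.4% lower). The share of ER genes called was thus near or below the background. Those higher were the co-chaperones Dnajb9 and Dnajc3, the chaperones Hspa5 and Hyou1, Calr, Pdia3, Pdia4 and Ppp1r15a. Herpud1, Asns and Sdf2l1 were lower. The median difference was 0.09, against 0.00 for all genes.

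Dnajb9, a BiP co-chaperone, had 9.47, 9.47 and 9.56 with TGF-b1 and 8.59, 8.69 and 8.87 without. All treated arrays lay above all untreated ones, by 0.79 ± 0.09, a 1.72-fold rise (adjusted p 5.4e-05). Hspa5 had 13.14, 13.13 and 13.30 with TGF-b1 and 12.84, 12.90 and 12.92 without, again with no overlap (0.30 ± 0.08, 1.23-fold, adjusted p 0.0126). Dnajc3, a co-chaperone that also inhibits PERK, differed by 0.34, and Hyou1, the exchange factor of BiP, by 0.29 (adjusted p 0.0178 and 0.0206). Sdf2l1, which works with BiP co-chaperones, had 9.17, 9.25 and 9.44 with TGF-b1 and 9.64, 9.54 and 9.73 without, a difference of -0.35 ± 0.10 (adjusted p 0.0241). The other 4 lumen genes were not called: Hsp90b1 0.00, Dnajb11 0.09, Manf 0.01 and Creld2 -0.18.

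Among lectin chaperones and disulfide enzymes, Pdia3, the isomerase that acts on glycoproteins, had 12.87, 12.95 and 12.95 with TGF-b1 and 12.39, 12.56 and 12.49 without. The groups did not overlap and differed by 0.44 ± 0.07, 1.36-fold (adjusted p 0.000448). Calr (0.35, adjusted p 0.038) and Pdia4 (0.28, adjusted p 0.0407) were closer to the threshold, and the Calr groups overlapped. The other Pdia4 probe set differed by 0.06 and was not called. Canx, Pdia6, P4hb and Ero1l ranged from -0.23 to 0.15.

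The ATF4 and CHOP targets split. Ppp1r15a had 9.10, 9.02 and 9.30 with TGF-b1 and 8.23, 8.01 and 8.81 without, with no overlap (0.79 ± 0.21, 1.73-fold, adjusted p 0.0122). Asns, which makes asparagine, had 11.12, 11.29 and 11.45 with TGF-b1 and 11.90, 11.81 and 12.22 without, a fall of -0.69 ± 0.13 (adjusted p 0.00198). Trib3 was 8.96, 9.37 and 9.45 with TGF-b1 and 8.77, 8.84 and 10.12 without, and 1 untreated array lay above all treated ones (0.02). Chac1 differed by 0.60 ± 0.28 with overlapping groups (adjusted p 0.139, and 0.00208 with the replicate number as a block).

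Herpud1, an ER membrane protein of the degradation machinery, had 9.30, 9.78 and 9.66 with TGF-b1 and 10.18, 10.06 and 10.64 without. It was lower on all treated arrays (-0.71 ± 0.19, adjusted p 0.0153), and its other probe set gave -0.69. Edem1, which passes misfolded glycoproteins to degradation, differed by 0.23 (adjusted p 0.0749, and 0.00345 with the block), and Sel1l, the partner of the HRD1 ligase, by -0.08. None of the 4 transcription factors was called: Xbp1 0.29 (adjusted p 0.205, and 0.00518 with the block), Ddit3 0.27, Atf6 0.11 and Atf4 -0.10. Of the 6 translocon genes none was called, from -0.18 for Ssr1 to 0.20 for Sec61b, with 2 at an unadjusted p under 0.05 (Sec61b adjusted p 0.072, and 0.0132 with the block).

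Pdia3, Dnajb9, Asns and Ppp1r15a were called in every alternative fit run. With the replicate number as a block 15 ER genes were called, 12 higher and 3 lower. The shares of other genes given above come from the fit without the block, so they are no background for this count. With no block, the number of called ER genes was 7 without array 1 or array 3 of control siRNA without TGF-b1. It was 7 or 6 without array 1 or array 3 of control siRNA with TGF-b1. Without array 1 of untreated control siRNA, the array with the conflicting note, Calr, Pdia4, Sdf2l1 and Hyou1 lost their call (adjusted p 0.134, 0.143, 0.0626 and 0.0683).

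**Figure D2:**
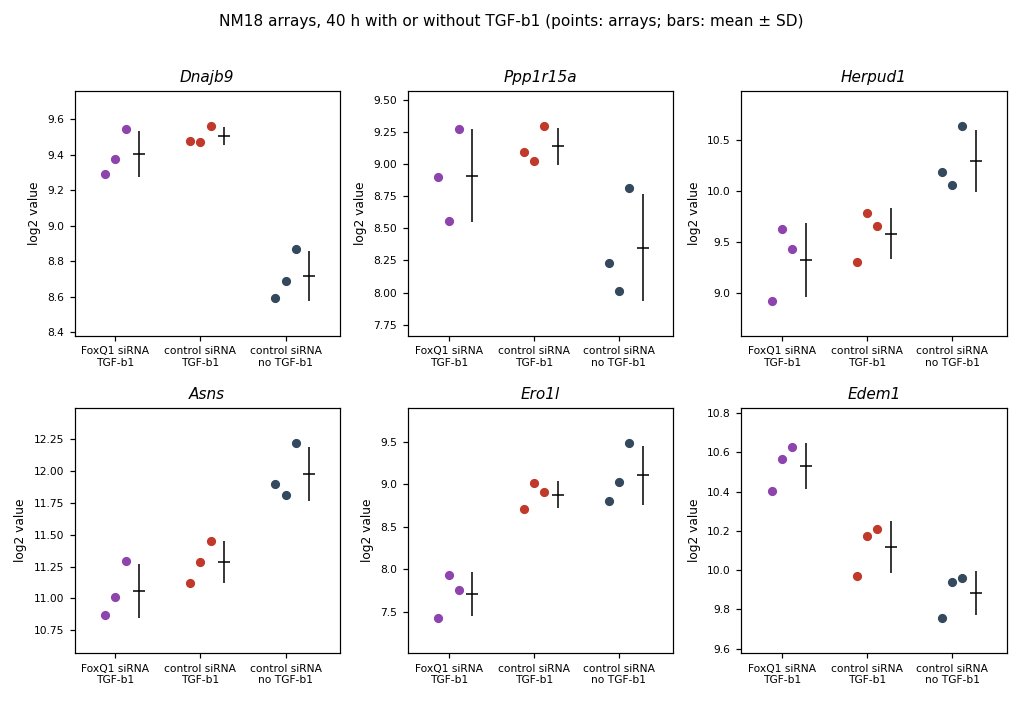
Log2 values of Dnajb9, Ppp1r15a, Herpud1, Asns, Ero1l and Edem1 on the 9 NM18 arrays, with 3 points per group and the group mean and SD beside them. Under control siRNA the TGF-b1 arrays lie above the untreated ones for Dnajb9 and Ppp1r15a and below them for Herpud1 and Asns, and the FoxQ1 siRNA arrays lie apart from both control groups for Ero1l and Edem1.

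Of 27 other sensor and degradation genes 8 were higher and 2 lower with TGF-b1 at 40 h, led by Eif2ak3 (0.96), Ubxn4 (0.96) and Ube2j1 (0.51). Of 26 other folding enzymes 9 were higher, among them Qsox1 (0.95), Fkbp7 (1.25) and Txndc5 (0.57), and 2 lower, Fkbp2 (-0.59) and Cnpy3 (-0.25). Translocation and glycosylation genes had 6 higher and 4 lower of 26, with Stt3b, a subunit of the oligosaccharyltransferase, at -0.74. Of 37 ATF4 targets and related genes 15 were lower and 3 higher. The serine synthesis genes Psat1 (-1.46) and Phgdh (-0.72) and the amino acid carrier Slc7a5 (-1.21) were lower, while Nupr1 (1.10) and Atf3 (0.61) were higher. The median of that list was -0.16. Beside the counts of these lists, 30.7% of all genes were called (13.2% higher, 17.5% lower). Among genes above the median level 47.8% were (21.4% higher, 26.4% lower), all without the block. With the block the counts were 10 higher and 3 lower for sensors and degradation, 11 and 5 for folding enzymes, 8 and 5 for translocation and 4 and 19 for the ATF4 list. Without array 1 of untreated control siRNA they were 6 and 1, 5 and 3, 5 and 3, and 2 and 15, a fit chosen after the data were seen.

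Array means of epithelial, fibroblast and leukocyte markers separated the same groups. Basal means overlapped, at 6.35 to 6.58 with TGF-b1 and 6.25 to 6.39 without. Endothelial means overlapped as well, at 5.88 to 5.98 and 5.79 to 5.95. Epithelial markers averaged 9.67 to 9.72 per array with TGF-b1 and 9.95 to 10.01 without, with 1 of 8 called higher and 2 lower. Fibroblast markers averaged 6.04 to 6.09 with TGF-b1 and 5.87 to 5.93 without, with 1 of 7 called higher. Leukocyte markers averaged 6.99 to 7.03 with TGF-b1 and 7.09 to 7.15 without, with 1 of 6 called higher and 1 lower. The fibroblast and leukocyte means lay below the median gene (7.76). Median differences with TGF-b1 were 0.01 for epithelial and 0.05 for leukocyte markers, opposite in direction to their array means. The part of these markers in the results at 40 h was not tested.

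The knockdown comparison asks what FoxQ1 siRNA changed relative to control siRNA when both had TGF-b1. Of the 33 ER genes 6 were called (18.2%), 5 higher (15.2%) and 1 lower (3.03%) with FoxQ1 siRNA. Over all genes 19.6% were called (11.3% higher, 8.28% lower), and among those above the median level 31.4% (17.5% higher, 13.9% lower). The share of ER genes called was near or below the background. Higher were Edem1, Pdia4, Creld2, Dnajb11 and Hyou1, and lower was Ero1l. The median difference was 0.06, against 0.00 for all genes.

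Ero1l, the oxidase that recharges the protein disulfide isomerases, had 7.43, 7.94 and 7.76 with FoxQ1 siRNA and 8.71, 9.02 and 8.91 with control siRNA. Every FoxQ1 siRNA array lay below every control array. The difference was -1.17 ± 0.17, a fold of 0.444 (adjusted p 0.000617), and it was called in all alternative fits run. Of its other probe sets 1 gave -0.93 and was called, and 1 gave -0.17 and was not. At 40 h without the knockdown, the TGF-b1 difference of Ero1l was -0.23 (not called), and its level with FoxQ1 siRNA was also below that of untreated cells, at 8.81, 9.02 and 9.48.

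Edem1 had 10.40, 10.57 and 10.63 with FoxQ1 siRNA and 9.97, 10.18 and 10.21 with control siRNA, with no overlap (0.41 ± 0.09, 1.33-fold, adjusted p 0.00759). It too was called in all alternative fits, but its other probe set differed by 0.11 and was not called. Pdia4, a disulfide isomerase, had 10.21, 10.11 and 10.39 with FoxQ1 siRNA and 9.80, 9.78 and 10.03 with control siRNA, again without overlap (0.37 ± 0.09, adjusted p 0.0173), while its other probe set gave 0.02. Creld2, an ER-resident protein induced by ER stress, had 9.90, 10.12 and 10.23 with FoxQ1 siRNA and 9.60, 9.79 and 9.78 with control siRNA (0.36 ± 0.09, adjusted p 0.0164).

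Dnajb11, a BiP co-chaperone, had 10.50, 10.42 and 10.66 with FoxQ1 siRNA and 10.16, 10.29 and 10.20 with control siRNA, which did not overlap (0.31 ± 0.08, adjusted p 0.0124). Hyou1 was 9.97, 9.81 and 10.11 with FoxQ1 siRNA and 9.60, 9.71 and 9.77 with control siRNA, a difference of 0.27 ± 0.08 (adjusted p 0.0417) that lost its call in 7 of 12 alternative fits. Without array 1 of control siRNA with TGF-b1 the number of called ER genes was 2, and without array 3 of FoxQ1 siRNA it was 3. With the replicate number as a block it was 11, with Canx, Pdia3, Manf and Ssr3 higher and Asns lower in addition (adjusted p 0.0295, 0.0405, 0.00967, 0.0318 and 0.0244). The shares of other genes given above come from the fit without the block, so they are no background for that count.

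BiP itself was at 13.12, 13.23 and 13.38 with FoxQ1 siRNA and 13.14, 13.13 and 13.30 with control siRNA, and these arrays overlapped (0.05). The remaining lumen genes were Hsp90b1 0.02, Dnajb9 -0.10, Dnajc3 -0.17, Sdf2l1 0.10 and Manf 0.24. The other 4 Dnajc3 probe sets were called lower, by -0.38 to -0.52. Calr, Canx, Pdia3, Pdia6 and P4hb lay between 0.06 and 0.17, the translocon genes between 0.05 and 0.17 with 1 at an unadjusted p under 0.05, Herpud1 at -0.26 and Sel1l at -0.13. The transcription factors were at -0.16 (Atf4), -0.11 (Atf6), 0.03 (Xbp1) and 0.27 (Ddit3), none of them called. All 4 ATF4 and CHOP targets had negative differences, from -0.33 for Chac1 to -0.22 for Trib3, and none was called (0 at an unadjusted p under 0.05).

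**Figure D3:**
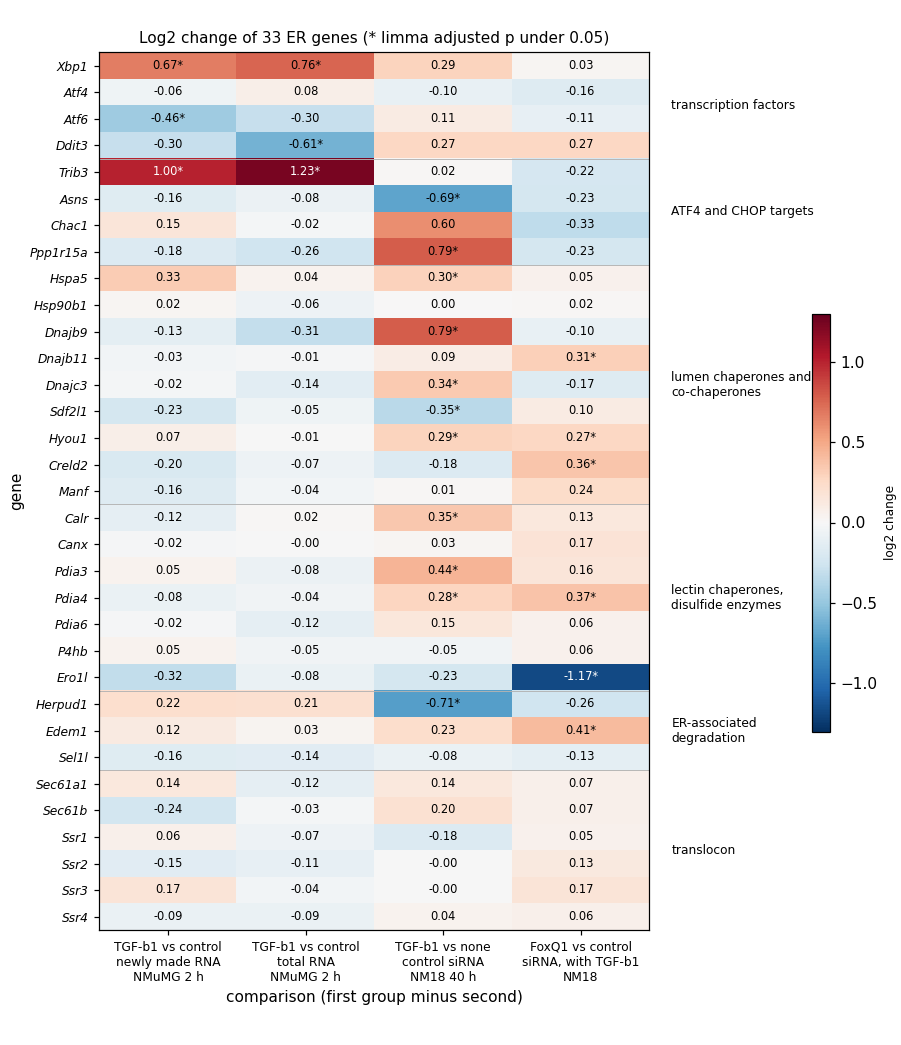
Log2 difference of the 33 measured ER genes, 1 per row and grouped by role, in the TGF-b1 comparisons of newly made and total NMuMG RNA at 2 h, the TGF-b1 comparison of NM18 cells at 40 h and the FoxQ1 siRNA comparison. Red is higher and blue lower in the first group named, and an asterisk marks a limma adjusted p under 0.05. At 2 h the calls are Trib3, Xbp1, Atf6 and Ddit3, at 40 h 11 genes are called, and with FoxQ1 siRNA Ero1l stands at -1.17.

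Of the other pathway genes, 5 of 27 sensor and degradation genes were higher with FoxQ1 siRNA and none lower, led by Rnf5 (0.43), Derl2 (0.30) and Selenos (0.28). Of 26 folding enzymes 6 were higher and 2 lower, with Ganab, glucosidase II, at 0.67 and Mogs, glucosidase I, at -0.34. Of 26 translocation and glycosylation genes 3 were higher and 1 lower, Magt1, an oxidoreductase subunit of the oligosaccharyltransferase (-1.25). ATF4 targets and related genes had 1 higher, Eif2ak2 (0.47), and 9 lower of 37, among them Cebpg (-0.65), Xpot (-0.48) and Atf3 (-0.78). Beside the counts of these lists, 19.6% of all genes were called (11.3% higher, 8.28% lower). Among genes above the median level 31.4% were (17.5% higher, 13.9% lower), all without the block. With the block the list counts were 8 higher and 2 lower for sensors and degradation, 6 higher and 2 lower for translocation, and 2 higher and 15 lower for the ATF4 list. Epithelial markers averaged 9.98 to 10.1 per array with FoxQ1 siRNA and 9.67 to 9.72 with control siRNA, with 3 of 8 called higher. Leukocyte markers averaged 7.12 to 7.20 with FoxQ1 siRNA and 6.99 to 7.03 with control siRNA, below the median gene, with 3 of 6 called higher. Their part in these results was not tested.

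Cells with FoxQ1 siRNA and TGF-b1 were also set against cells with control siRNA and no TGF-b1, which shares arrays with both comparisons above. Of the 33 ER genes 14 were called (42.4%), 11 higher (33.3%) and 3 lower (9.09%). Over all genes 37.9% were called (19.3% higher, 18.6% lower), and among those above the median level 59.3% (30.4% higher, 28.9% lower). With the block 23 ER genes were called, 17 higher and 6 lower, and the shares just given are from the fit without it. With no block and without array 1 of untreated control siRNA, 13 ER genes were called. The calls for Canx and Manf were then lost (adjusted p 0.091 and 0.106), and Dnajc3 was higher (0.27, adjusted p 0.0257). Pdia4 differed by 0.65 here, by 0.28 for TGF-b1 alone and by 0.37 for FoxQ1 siRNA, and Hyou1 by 0.55, 0.29 and 0.27. For every gene the first of these values is the other values added together by construction, so it is no separate result. Edem1 was at 0.65, Dnajb9 at 0.69, Ero1l at -1.40, Herpud1 at -0.97 and Asns at -0.92.

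The remaining comparison sets newly made RNA against total RNA in the same NMuMG treatment. Most ER genes were lower in newly made RNA relative to the array as a whole. In TGF-b1-treated cells 26 of 33 were called (78.8%), 6 higher and 20 lower, against 45% of all genes (18.3% higher, 26.8% lower) and 71.4% of genes above the median level. In control cells 29 of 33 were called (87.9%), 6 higher and 23 lower, against 44% of all genes (17.2% higher, 26.8% lower). Among genes above the median level 70.5% were called there, 28.5% higher and 42% lower. The median difference of the ER genes was -0.49 in treated and -0.75 in control cells, against -0.08 for all genes in each treatment and -0.16 and -0.18 for genes above the median level. Called the same way in both treatments were 24 genes.

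The scale between the RNA types bears on these counts. Array medians over all probe sets were higher in newly made than in total RNA, by 0.23 in treated and 0.25 in control cells. With all arrays shifted to the same median, the ER calls were 2 higher and 24 lower in treated and 3 higher and 24 lower in control cells. Calls over all genes were then 2532 higher and 8818 lower, beside 3321 and 4872 as deposited, in treated cells, and 2244 and 9308, beside 3131 and 4877, in control cells. The quality control probes differed as well. The log2 difference of 3′ over 5′ Actb probes was 1.77 to 3.21 on newly made and 1.34 to 1.60 on total RNA arrays, and that of Gapdh 2.67 to 3.72 and 1.63 to 1.94. Epithelial markers averaged 8.68 to 8.82 in newly made and 9.54 to 9.63 in total control RNA, with 4 of 8 called lower. The part of these quantities in the result was not tested.

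Translocon genes were lower in newly made RNA, 4 of 6 in treated and 6 of 6 in control cells. In control cells Ssr1 lost its call in 6 and Ssr3 in 4 of 12 alternative fits, and with quantile normalization they differed by -0.14 and -0.01 (adjusted p 0.298 and 0.971). Ssr2, a subunit of the translocon-associated protein complex, had 9.18, 9.62 and 9.51 in newly made and 10.82, 10.84 and 10.78 in total RNA of control cells, without overlap (-1.38 ± 0.12, adjusted p 1.33e-07). Sec61b, a subunit of the channel, differed by -1.58 in treated and -1.37 in control cells. Ssr4 had the lowest difference of the members, -2.44 in each treatment, but its other 2 probe sets gave 0.26 and 0.46 in treated cells, the second of them called higher, and 0.10 and 0.17 in control cells, neither called. The mean of its probe sets gave -0.57 in treated and -0.72 in control cells. Sec61a1, the channel's main subunit, was at -0.75 in treated and -1.01 in control cells, while its 5 other probe sets ran from -1.45 to 2.47 and from -1.65 to 2.09. In treated cells the mean of its probe sets gave -0.16 and was not called (adjusted p 0.156).

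Of the 9 lumen chaperones and co-chaperones 7 were lower in newly made RNA of treated cells and 8 in control cells. Creld2 had 8.08, 8.73 and 8.77 in newly made and 10.07, 9.97 and 10.13 in total control RNA, without overlap (-1.53 ± 0.17, a fold of 0.347, adjusted p 1.19e-06). Manf, a secreted protein kept in the ER, differed by -1.44 in treated and -1.31 in control cells. Hsp90b1, the ER member of the Hsp90 family, differed by -0.99 and -1.08, and Hspa5 by -0.47 and -0.75. With quantile normalization Hspa5 differed by -0.04 in treated and -0.24 in control cells, and neither was called (adjusted p 0.813 and 0.128). The call in treated cells was also lost without array 1 of newly made or of total RNA (adjusted p 0.0805 and 0.0573).

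Dnajb9 went the other way. With TGF-b1 it had 9.84, 9.84 and 10.03 in newly made and 8.89, 8.71 and 8.45 in total RNA, and in control cells 9.84, 10.15 and 10.11 in newly made and 9.07, 8.96 and 8.94 in total RNA. No newly made array overlapped the total RNA arrays of its treatment. The differences were 1.22 ± 0.13, 2.33-fold, in treated and 1.05 ± 0.13, 2.06-fold, in control cells (adjusted p 7.72e-07 and 4.62e-06), called in all alternative fits run. It has 1 probe set.

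Lectin chaperones and disulfide enzymes were lower, 6 of 7 in each treatment. In treated and control cells Pdia3 was at -1.48 and -1.61, Pdia6 at -1.39 and -1.49, P4hb at -1.02 and -1.11 and Calr at -1.20 and -1.06. The other Pdia6 probe set gave 0.38 in treated cells, called higher, and 0.20 in control cells, and the mean of both gave -0.51 and -0.65. Ero1l was higher, by 0.47 and 0.70, although another of its probe sets gave -1.35 in control cells. Sel1l was higher by 0.96 and 0.98, and other Sel1l probe sets ran from -0.99 to 0.06 in control cells. Edem1 was higher by 0.54 in treated cells (adjusted p 0.0233) and stood at 0.45 in control cells (adjusted p 0.0563), where its other probe set gave -1.29. With the mean of all probe sets of a gene, the differences of Sel1l, Ero1l and Edem1 were negative in both treatments.

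Of 23 members with several probe sets, 9 had a probe set called in the opposite direction in treated cells and 7 in control cells. In the 2 h TGF-b1 comparisons none of the 23 had one, and neither did any of the 19 such members of the NM18 set at 40 h of TGF-b1 or between FoxQ1 and control siRNA under TGF-b1. Between FoxQ1 siRNA with TGF-b1 and untreated control siRNA 1 of the 19 had such a probe set, Dnajc3.

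**Figure D4:**
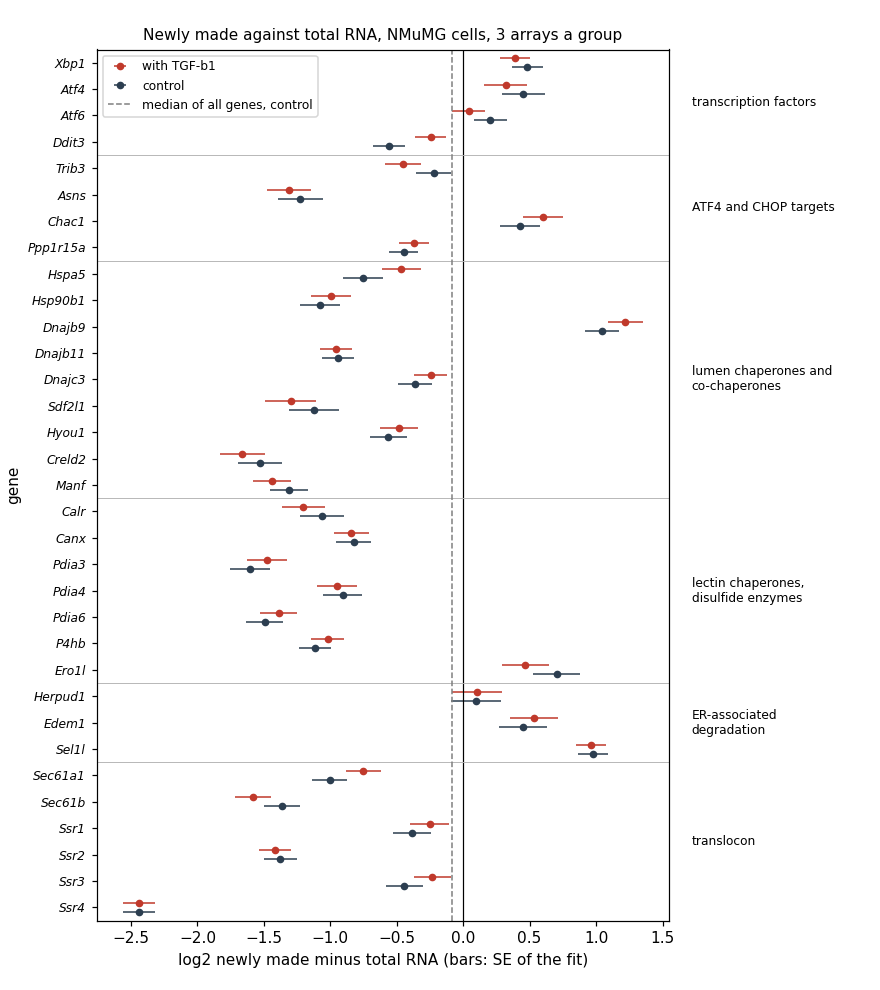
Log2 difference between newly made and total RNA for the 33 measured ER genes in NMuMG cells, with TGF-b1 in red above control in dark blue, as points with the SE of the fit. The dashed line is the median of all genes in control cells (-0.08). Most genes lie left of it, while Dnajb9 and Sel1l lie near 1.

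**Figure D5:**
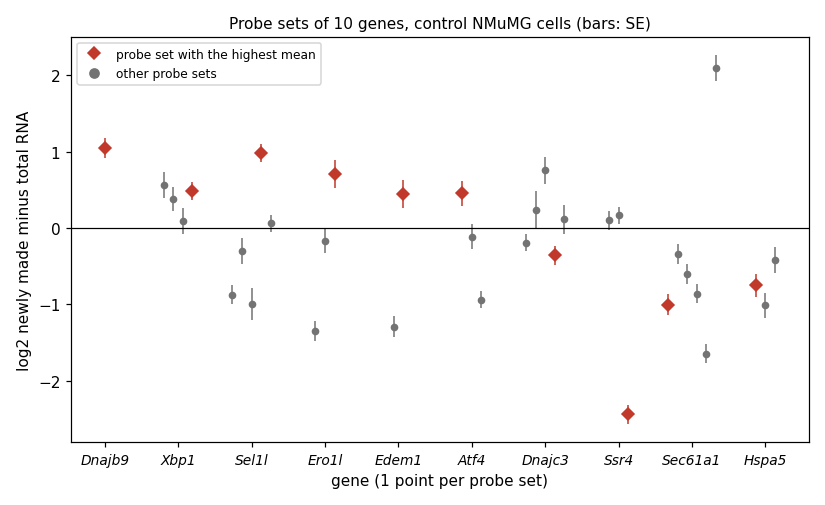
Log2 difference between newly made and total RNA of control NMuMG cells for each probe set of 10 ER genes, with SE bars. Red diamonds mark the probe set that stood for the gene and grey circles the others. Probe sets of Sel1l, Ero1l, Edem1 and Sec61a1 lie on opposite sides of 0, while Dnajb9 has 1 probe set.

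Among the transcription factors, Xbp1 was higher in newly made RNA by 0.39 in treated and 0.48 in control cells. These calls were lost with a common array median (adjusted p 0.241 and 0.1), and that in treated cells also without array 2 of TGF-b1 total RNA (adjusted p 0.0593). Atf4 stood at 0.32 in treated cells, not called, and was higher by 0.45 in control cells (adjusted p 0.0294), where the mean of its probe sets gave -0.20. Ddit3 stood at -0.25 in treated cells, not called, and was lower in control cells (-0.56, adjusted p 0.000922). There the mean of the Ddit3 probe sets gave -0.14 and was not called (adjusted p 0.224). Atf6 was at 0.04 and 0.20. Of the ATF4 and CHOP targets, Asns was lower in treated and control cells (-1.31 and -1.23), as was Ppp1r15a (-0.37 and -0.45), and Chac1 was higher by 0.60 and 0.43. Both Chac1 calls were lost with a common array median (adjusted p 0.0506 and 0.322), and that in control cells was lost in 4 of 12 alternative fits. Trib3 was lower in treated cells (-0.45, adjusted p 0.0105) and stood at -0.22 in control cells, not called.

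Calls on the other lists were counted in the same comparison. Over all genes 44% were called in control and 45% in treated cells. Among genes above the median level 70.5% were called in control cells (28.5% higher, 42% lower). In treated cells 71.4% of them were called (30.2% higher, 41.2% lower). Of 27 translocation and glycosylation genes 20 were lower and 2 higher in newly made RNA of control cells, with Rpn2 at -2.61, Ddost at -2.25 and Tram2 at 1.36. Of 31 other folding enzymes 21 were lower and 2 higher, with Prkcsh at -2.33 and Tmx4 at 0.71. Of 38 ATF4 targets and related genes 26 were lower and 5 higher, with Shmt2 at -2.33, Phgdh at -1.99, Ppp1r15b at 1.67 and Cebpg at 1.54. Of 30 sensor and degradation genes 15 were lower and 7 higher, with Ufm1 at -1.85, and Rnf139 (1.15), Ern1 (1.11) and Derl1 (0.99) higher. Medians of these lists were -0.96, -0.78, -0.70 and -0.34. In treated cells the counts were 19 lower and 2 higher, 22 and 3, 26 and 5, and 13 and 7.

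Grouped by promoter element, the 9 genes with an ERSE or ERSE-II had 0 calls at 2 h of TGF-b1 in either RNA, with medians of -0.02 and -0.01. At 40 h, 3 of the 9 were higher and 1 lower (median 0.09), and with FoxQ1 siRNA 2 were higher (median 0.06). Beside these counts, 47.8% of genes above the median level were called at 40 h and 31.4% with FoxQ1 siRNA, and at 2 h 9.85% (newly made RNA) and 4.09% (total RNA). The 4 genes with a CARE, which include Herpud1 of the group before, had 1 called at 2 h, Trib3, in each RNA. At 40 h 2 of the 4 were lower, Asns and Herpud1 (median -0.34), and with FoxQ1 siRNA none was called, with differences from -0.33 to -0.22. The 16 measured genes whose windows held none of the spelled motifs had 1 called at 2 h in newly made RNA, Xbp1, and 2 in total RNA, 5 at 40 h and 3 with FoxQ1 siRNA.

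Across the TGF-b1 comparisons at 2 h and 40 h and the FoxQ1 siRNA comparison, 14 of the 33 ER genes were called in none (42.4%), against 58.5% of the 12393 genes measured in both sets and 36.5% of those above the median level in both. They were Hsp90b1, Manf, Canx, Pdia6, P4hb, Atf4, Chac1, Sel1l and the 6 translocon genes. With the replicate number as a block 5 of these 14 were called, which left 9 of the 33. The 5 were Chac1 and Sec61b at 40 h and Manf, Canx and Ssr3 with FoxQ1 siRNA. Of the 12393 genes of both sets the block left 5991 called in none, against 7256 without it. Of the 6069 genes above the median level it left 1381, against 2217.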

How the data were processed

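RNA was measured on Affymetrix mouse arrays, 12 with NMuMG and 9 with NM18 RNA. The authors deposited processed values per probe set, log2 as judged from their range of 2.34 to 14.8 and 4.57 to 14.6, and the submitters' processing notes name affy 1.18.2. The scaling between arrays is, in the sources used here, not given. Total and enriched NMuMG RNA was amplified over repeated rounds before hybridisation, and NM18 RNA was labelled from the 3′ end, per the labels' protocols. Platform annotation gave 34945 of 45101 and 20380 of 22690 probe sets a single gene symbol. The number of arrays limits the precision.

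Samples were grouped by title and treatment label. From the deposited values, limma 3.58.1 (R 4.3.3; lmFit and eBayes) was fitted per set over all its groups without a covariate, with Benjamini-Hochberg adjustment over all genes and a threshold of 0.05. The text names the listed genes, Foxq1 and, of 4 other lists, up to 3 called genes per direction with the smallest p. The members and all lists were chosen with earlier results of these data known. Sets were tested apart, since they were processed separately. Same-numbered arrays deviated together in both TGF-b1 comparisons at 2 h and in all NM18 comparisons (r of deviations 0.12 to 0.73), so those numbers were taken as pairs. The main fit and its calls did not use this pairing, and only the replicate block did. Between newly made and total RNA r reached down to 0.01, and no pairing was taken. Alternatives were a replicate block, median centring, quantile normalization, only the compared arrays, only genes above the median level, the mean of a gene's probe sets, and leaving out each array.

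The fit was tested on simulated data with 200 changed genes per comparison. The simulated noise was independent between arrays, unlike the paired deviations above. The real data also had more calls, such as 3807 at 40 h and 2425 with FoxQ1 siRNA, so recovery on the real arrays may differ. For TGF-b1 at 2 h it recovered 88% (newly made RNA) and 93% (total RNA) of changes of 1, and 28% and 26% of changes of 0.5. At 40 h it recovered 98% and 84%, and for FoxQ1 siRNA 93% and 84%. Promoter windows came from a RefSeq table. 1 gene, Sec61g, was left out for its shared probe set.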

Additional observations from a re-analysis of the deposited data

Results flagged for a closer look

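Dnajb9 differed in opposite directions with TGF-b1 in the 2 cell lines. In NMuMG total RNA at 2 h every TGF-b1 array lay below every control array, at 8.89, 8.71 and 8.45 against 9.07, 8.96 and 8.94, a difference of -0.31 ± 0.13 (SE) that was not called (limma adjusted p 0.421). In NM18 cells at 40 h every TGF-b1 array lay above every untreated one, by 0.79. The difference between these effects was not tested. The sets were processed separately and differ in cell line, time, 4sU and siRNA, which cannot be told apart. Newly made NMuMG RNA gave -0.13.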

How the results depend on the processing

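Trib3 and Xbp1 at 2 h, Pdia3, Dnajb9, Asns and Ppp1r15a at 40 h, and Ero1l and Edem1 with FoxQ1 siRNA kept their direction and their call in all alternatives run. With 3 arrays a group, smaller differences depended on single arrays. Leaving out each array in turn, the number of called ER genes was 2 to 3 at 2 h in newly made and 2 to 3 in total RNA, 0 for their difference, 22 to 25 (treated cells) and 26 to 29 (control cells) for newly made against total RNA, 6 to 9 at 40 h, 2 to 6 with FoxQ1 siRNA and 12 to 16 for the FoxQ1 siRNA group against untreated cells. Over all genes the counts were 758 to 1288, 308 to 358, 4 to 20, 7441 to 7952, 7424 to 8048, 3103 to 3741, 1652 to 2143 and 4078 to 4572 in the same order. With the replicate number as a block, where the numbers paired the arrays, the ER genes called were 15 at 40 h against 11, 11 with FoxQ1 siRNA against 6, and 23 against 14 for the FoxQ1 siRNA group against untreated cells. The block added calls over all genes too, and whether these rises were particular to the ER genes was not tested. Of 7256 genes called in none of the TGF-b1 comparisons and the FoxQ1 siRNA comparison under TGF-b1, 1265 were called with the block. Of the 2217 such genes above the median level 836 were, and of the 14 such ER genes 5 were. These counts leave out the FoxQ1 siRNA group against untreated cells. All genes called with the block were 701 against 452 in total RNA at 2 h and 39 against 12 for the difference between the RNA types. For newly made against total RNA, where no pairing was taken, the block gave 26 called ER genes against 26 in treated and 30 against 29 in control cells. The difference between the RNA types had 19 calls with quantile normalization, and newly made RNA at 2 h had 680 against 1116 with only the compared arrays. The cause was not tested. With the mean of all probe sets of a gene, the difference between newly made and total RNA of treated cells was -0.26 for Edem1, -0.19 for Sel1l and -0.42 for Ero1l. In control cells it was 0.11 for Dnajc3, -0.20 for Atf4, -0.42 for Edem1, -0.23 for Sel1l and -0.27 for Ero1l. Each of these 8 values has the opposite sign to that of the brightest probe set, because probe sets of these genes disagree.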
